A study of Homo sapiens with 6 samples.

Results

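The DEAD and DEAH box RNA helicases are the genes whose symbol is DDX or DHX followed by a number, without DDX58 and DDX60, and 52 of the 17646 genes listed in each table met this rule. They were described in MDA-MB-231 cells, an established human line of triple negative breast cancer, 48 h after transfection with an siRNA against USP32 (siUSP32) or with a control siRNA (siControl). Each group held 3 libraries of total RNA. Whether the 3 were grown apart is not stated in the labels, so the spread behind each p-value is that between libraries and may be technical. Both groups are transfected cells of 1 line, and no untransfected cells were analysed here. USP32 is a ubiquitin-specific protease, and the study's title concerns its part in the stability of YAP.

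These helicases use ATP to open short RNA duplexes or to strip proteins from RNA, and are named after a conserved Asp-Glu-Ala-Asp or Asp-Glu-Ala-His motif. DEAD box proteins act locally and usually do not travel along the strand, whereas DEAH box proteins translocate and are often switched on by partner proteins with a G-patch. Groups of them serve the assembly of ribosomal subunits in the nucleolus, each step of the splicing cycle, the export of mRNA through the nuclear pore, and translation or decay in the cytoplasm.

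Values were deposited as FPKM, in which fragments are divided by transcript length and by the library's mapped fragments. USP32 was at 2.0, 1.88 and 2.01 FPKM in siUSP32 libraries, against 7.5, 7.48 and 8.32 FPKM in siControl libraries, so the groups did not overlap (log2 difference -1.56 ± 0.07, SE, limma adjusted p = 8.57e-08). VIM and CD44, markers of this line, were at 1658 and 135 FPKM in siUSP32 and at 1085 and 425 FPKM in siControl. ESR1, the estrogen receptor gene that such lines lack, was at most 0.63 FPKM in any library, and ERBB2 averaged 3.60 FPKM in siUSP32 and 12.03 FPKM in siControl. Of 4 markers of other cells, PTPRC and ALB were at most 0.03 FPKM and PECAM1 and COL1A1 at most 1.1 and 2.08 FPKM. The FPKM summed to 855573 to 948641 per siUSP32 library and to 686376 to 694831 per siControl library, and siUSP32 library 2 had the highest sum. The read depth behind these values is unknown. Across genes, which are not independent replicates, the log2 difference fell with transcript length (r = -0.42 over 11962 genes).

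Of the 52 helicase genes 49 had a mean of at least 1 FPKM over the 6 libraries and were tested. The other 3, the germline helicases DDX4, DDX25 and DDX43, were at no more than 0.08 FPKM in any library. Of the 49, 22 rose and 11 fell in siUSP32 relative to siControl and 16 did not pass the test, at a limma adjusted p under 0.05. Over all 12003 genes tested, 33.3% were called higher and 41.3% lower, 74.6% in all, while the helicase shares were 44.9% and 22.4%. The median log2 difference was 0.07 for the helicases and -0.06 for all genes. The groups did not overlap for 34 of the 49, against 77.8% of all genes tested. In bulk RNA, fewer cells of a type and less RNA per cell cannot be told apart.

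The split of calls turned on how the libraries were scaled. Rescaling each library to the same sum (TPM) moved the median difference of all genes to -0.38 and left 7 helicases higher and 27 lower, with 14.4% and 62.2% of all genes called in these directions. Correcting each library for transcript length gave 28 higher and 6 lower, with 35.1% and 35.4% of all genes. Median-ratio scaling gave 25 and 7, with 40.9% and 34.7% of all genes, and quantile normalization 22 and 8, with 43.8% and 30%. The helicase median lay above that of all genes by 0.13 with the deposited FPKM, by 0.13 with TPM and by 0.19 with the length correction, but by 0.023 among genes with a mean of at least 5 FPKM and not after quantile normalization (-0.0022). In 6 scalings, which were the deposited FPKM, TPM, median-ratio, quantile, length correction and GC correction, 11 helicases kept 1 direction and passed the test each time. DDX11, DDX27, DDX28, DDX39B, DDX49, DDX54 and DHX37 were higher in each, and DDX3X, DDX6, DDX17 and DHX33 were lower. The 7 that rose were all the helicases called higher with TPM, 14.3% of those tested, against 14.4% of all genes. The share of all genes that passed in 1 direction in each of the 6 scalings was not computed. The 11 therefore cannot be called many or few.

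**Figure D1:**
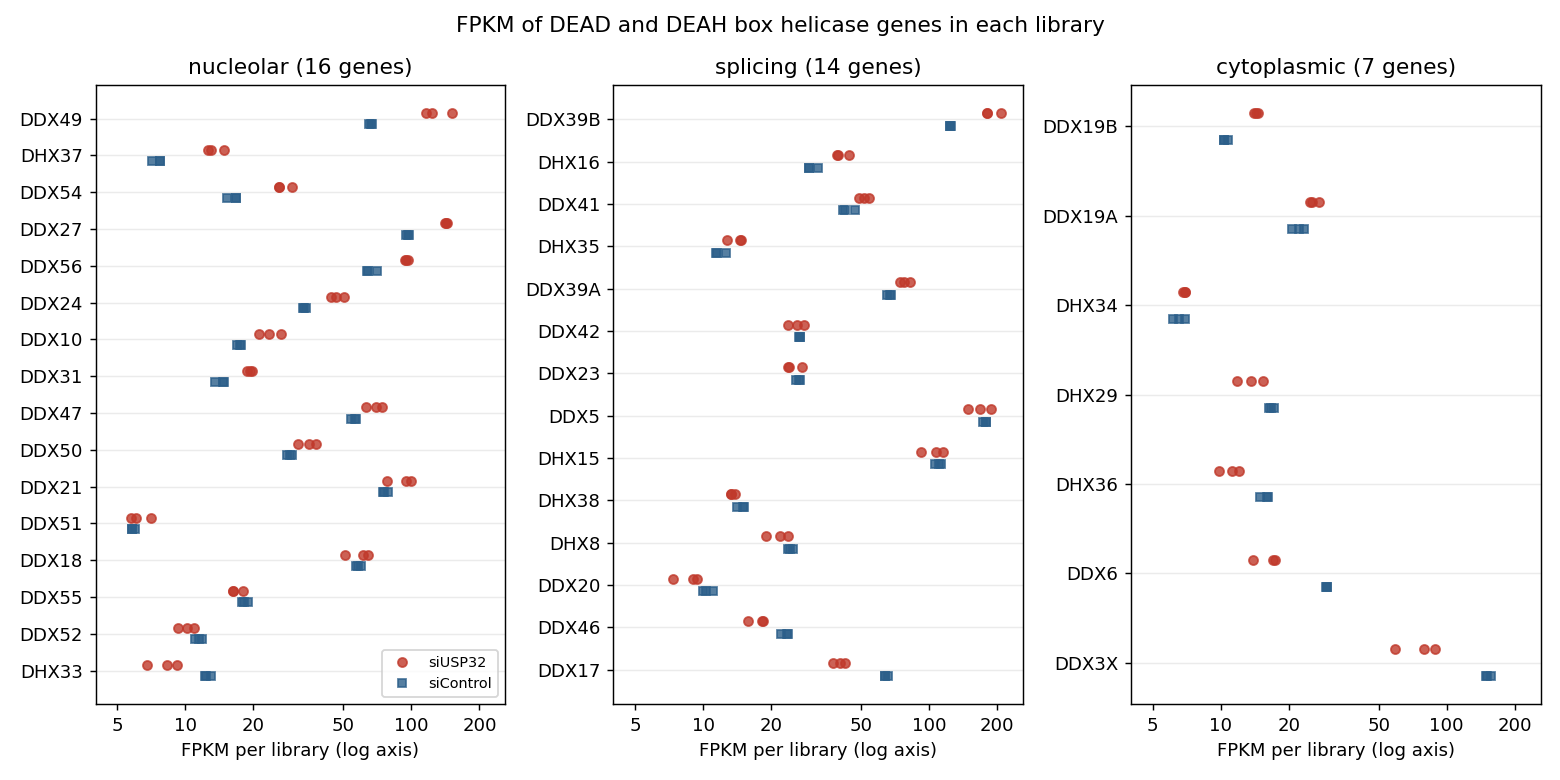
FPKM in each library on a log axis for the nucleolar, splicing and cytoplasmic helicases, with 3 siUSP32 libraries as red circles above 3 siControl libraries as blue squares for each gene. DDX49 sits at 116 to 151 in siUSP32 and at 65.1 to 66.8 in siControl, while DDX3X sits at 59.1 to 88.3 in siUSP32 and at 149 to 157 in siControl.

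Start-site sequences are shown for 3 helicases that rose and 1 that fell in each of the 6 scalings, to set beside the values below. They come from RefSeq on GRCh38.p14 and run from 250 bases before to 50 bases after an annotated start, 5′ to 3′ on the gene's strand. Capitals mark 4 motifs searched on both strands, CACGTG (the E-box bound by MYC among others), CCGGAAG (a core of ETS factor sites), CCAAT (bound by NF-Y) and TGATGNAA (a core of sites for ATF4 with C/EBP). No matches share bases in the windows shown. DHX37 (chr12:124989082-124989381, minus strand) holds CCGGAAG and CACGTG, DDX54 (chr12:113185429-113185728, minus strand) holds CACGTG, DDX39B (chr6:31541954-31542253, minus strand) holds CCGGAAG, and DDX17 (chr22:38506262-38506561, minus strand) holds none of the 4.
DHX37: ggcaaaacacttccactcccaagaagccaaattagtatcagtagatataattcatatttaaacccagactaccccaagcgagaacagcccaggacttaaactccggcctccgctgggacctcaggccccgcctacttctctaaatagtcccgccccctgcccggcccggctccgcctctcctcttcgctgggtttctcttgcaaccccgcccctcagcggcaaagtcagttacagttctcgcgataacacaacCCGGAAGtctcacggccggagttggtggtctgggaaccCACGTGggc
DDX54: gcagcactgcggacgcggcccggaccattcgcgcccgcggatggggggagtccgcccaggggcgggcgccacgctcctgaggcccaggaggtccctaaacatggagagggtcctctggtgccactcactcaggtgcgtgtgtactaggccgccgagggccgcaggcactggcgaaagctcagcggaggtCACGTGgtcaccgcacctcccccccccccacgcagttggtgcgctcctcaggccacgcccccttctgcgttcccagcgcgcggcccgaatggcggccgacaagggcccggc
DDX39B: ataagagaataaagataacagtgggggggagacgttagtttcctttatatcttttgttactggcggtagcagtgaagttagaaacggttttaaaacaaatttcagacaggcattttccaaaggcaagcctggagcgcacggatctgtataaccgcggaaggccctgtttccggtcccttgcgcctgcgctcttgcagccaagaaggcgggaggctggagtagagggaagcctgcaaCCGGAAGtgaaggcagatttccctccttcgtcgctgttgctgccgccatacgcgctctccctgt
DDX17: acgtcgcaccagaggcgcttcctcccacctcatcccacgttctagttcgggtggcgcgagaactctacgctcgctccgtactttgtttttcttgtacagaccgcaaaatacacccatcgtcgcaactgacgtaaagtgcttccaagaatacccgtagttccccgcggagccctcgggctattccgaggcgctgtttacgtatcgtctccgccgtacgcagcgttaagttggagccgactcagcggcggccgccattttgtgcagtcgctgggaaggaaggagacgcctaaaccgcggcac

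A start-site window was matched for 44 of the 49 tested helicases and for 9860 of all tested genes, with several windows for some genes. CCGGAAG was present for 23 of the 44 helicases (52.3%) and for 23.0% of all genes, and CACGTG for 9 (20.5%) and 12.9%. CCAAT was present for 22 helicases (50%) and for 43.3% of all genes, and TGATGNAA for 0 of the 44 helicases and for 2.62% of all genes. Among helicases that rose, 6 of 21 with a window held CACGTG and 13 held CCGGAAG. Among those that fell, 0 of 10 held CACGTG and 3 held CCGGAAG. The same split was not computed over all genes that rose or fell, so it cannot be called particular to helicases. The motifs are letters in a window and not measured binding.

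Nucleolar helicases, which remodel the precursors of both ribosomal subunits, were mostly higher. Of 16, all tested, 11 rose, 1 fell and 4 did not pass, which is 68.8% higher and 6.25% lower. Among all genes tested 33.3% were higher and 41.3% lower. The median log2 difference of the nucleolar helicases was 0.35. TPM gave 4 higher and 5 lower (median -0.0033), the length correction gave 13 and 2 (median 0.49), and without siUSP32 library 3 the counts were 10 and 3. Over all genes TPM called 14.4% higher and 62.2% lower, and the length correction 35.1% and 35.4%. Without siUSP32 library 3 the shares over all genes were 32.9% and 42.3%. The nucleolar median lay above that of all genes by 0.42 with the deposited FPKM, 0.38 with TPM and 0.23 after quantile normalization.

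DDX49, the relative of a yeast helicase of small subunit assembly (Entrez 54555, chromosome 19, 18919675 to 18928633 plus strand, GRCh38), was at 116, 151 and 124 FPKM in siUSP32 and at 66.4, 65.1 and 66.8 FPKM in siControl. Each siUSP32 library was above each siControl library, and the means differed 1.97-fold (log2 difference 0.96 ± 0.09, SE, limma adjusted p = 9.71e-06). An exact 2-sided permutation test gave p = 0.1 for this gene, the smallest that 3 against 3 libraries allow. TPM gave 0.59.

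DHX37, which in yeast releases the U3 RNA from the small subunit precursor (Entrez 57647, chromosome 12, 124946825 to 124989122, minus strand), was at 12.5, 13 and 14.8 FPKM in siUSP32 and at 7.72, 7.71 and 7.09 FPKM in siControl. The groups did not overlap (log2 difference 0.76 ± 0.07, SE, limma adjusted p = 1.62e-05). TPM gave 0.42 and the length correction 0.96. DDX54, of large subunit assembly (Entrez 79039, chromosome 12, 113157174 to 113185479, minus strand), was at 25.9, 29.6 and 26.1 FPKM in siUSP32 and at 16.7, 16.7 and 15.3 FPKM in siControl. It too did not overlap between the groups, with a difference of 0.71 ± 0.07 (limma adjusted p = 1.42e-05) that was 0.35 with TPM. The start-site windows of DHX37 and DDX54 printed above hold an E-box, which in DHX37 begins 41 bases after the start. DDX11, DDX27, DDX28 and DDX39B, which also rose in each of the 6 scalings, had none in their windows. No window was matched for DDX49. DDX27, which works with large subunit precursors (Entrez 55661, chromosome 20, 49219295 to 49244077, plus strand), was at 142, 140.4 and 144 FPKM in siUSP32 and at 97.3, 96.2 and 94.6 FPKM in siControl. The groups were far apart next to their spread, at 0.56 ± 0.04 (limma adjusted p = 3.25e-06), with 0.19 under TPM and 0.32 after quantile normalization.

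DDX56 and DDX24, of large subunit assembly, rose 1.44-fold and 1.40-fold, to 95.1 ± 1.27 FPKM in siUSP32 against 66.1 ± 3.78 in siControl and to 46.9 ± 2.95 against 33.5 ± 0.493 (SD, n = 3 each). DDX10, a relative of a yeast small subunit factor, rose 1.37-fold, DDX31 1.35-fold and DDX47 1.24-fold. With TPM these 5 lost their calls, at log2 differences of 0.15, 0.11, 0.07, 0.06 and -0.06. The length correction gave DDX24 and DDX10, whose transcripts are 5612 and 6707 bases long, differences of 0.77 and 0.81 in place of 0.47 and 0.42.

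The paralogs DDX21 and DDX50 lie side by side on chromosome 10 and encode nucleolar helicases, DDX21 being linked to RNA polymerase I transcription. DDX21 was at 94.5, 77.8 and 100.03 FPKM in siUSP32 and at 74.7, 75.7 and 79.1 FPKM in siControl, and siUSP32 library 2 lay within the siControl range. Its difference of 0.24 ± 0.09 (SE, limma adjusted p = 0.0320) was -0.13 with TPM. Its call was lost after quantile normalization (0.05), with no filter on low values, and when any library except siUSP32 library 2 was left out (0.16 to 0.26). DDX50 was at 35.3, 31.5 and 37.7 FPKM in siUSP32 and at 29.03, 28.1 and 29.7 FPKM in siControl (log2 difference 0.26, limma adjusted p = 0.00786), which was -0.10 with TPM and lost its call with the length correction (0.15). Within a library the ratio of DDX21 to DDX50 was 2.60 ± 0.117 in siUSP32 and 2.64 ± 0.0612 in siControl (SD, n = 3 each, exact permutation p = 0.6). TPM and median-ratio scaling multiply all genes of a library by a common factor and leave this ratio unchanged. The length correction and quantile normalization can change it. DDX21 and DDX50 differed by 0.46 and 0.15 with the length correction and by 0.05 and 0.27 after quantile normalization.

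DHX33, a nucleolar helicase linked to transcription of ribosomal RNA genes, was the nucleolar member that fell with the deposited FPKM (Entrez 56919, chromosome 17, 5440912 to 5469060, minus strand). It was at 8.30, 6.75 and 9.20 FPKM in siUSP32 and at 12.2, 12.3 and 13 FPKM in siControl, with no overlap (log2 difference -0.58 ± 0.10, SE, limma adjusted p = 5.23e-04). TPM gave -0.91, the length correction -0.27 and quantile normalization -0.33. DDX51 (6.29 FPKM in siUSP32, 5.86 in siControl), DDX18 (58.7 and 58.3), DDX55 (16.8 and 18.3) and DDX52 (10.1 and 11.5) missed the threshold. With TPM each of them passed as lower (-0.24, -0.36, -0.47 and -0.50). With the length correction DDX55 passed as lower (-0.18), and DDX51 (0.30), DDX18 (0.32) and DDX52 (0.20) passed as higher.

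**Figure D2:**
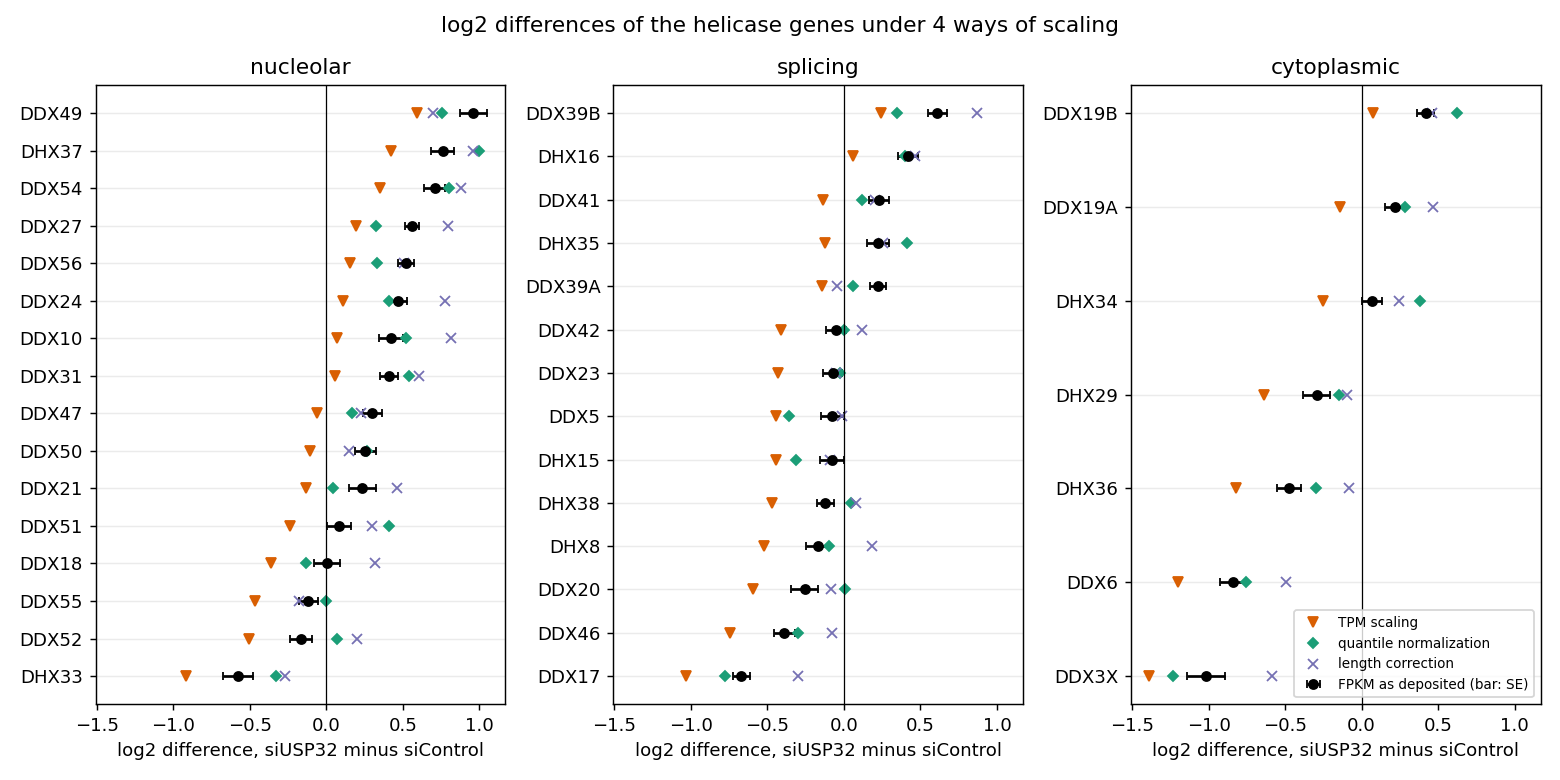
Log2 difference, siUSP32 minus siControl, of each nucleolar, splicing and cytoplasmic helicase, with the deposited FPKM as black circles (bar: SE from limma) and the same difference with TPM scaling (triangles), quantile normalization (diamonds) and length correction (crosses). TPM lies left of the deposited FPKM for each gene drawn, and DDX49 (0.59 with TPM) and DDX3X (-1.39 with TPM) stay on their sides of 0.

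Splicing helicases divided, with a share of rises near that of all genes. Of 14, all tested, 5 rose, 3 fell and 6 did not pass, which is 35.7% higher and 21.4% lower. The shares over all genes tested were 33.3% and 41.3%. The median log2 difference of the splicing helicases was -0.08, which lay -0.01 from that of all genes. TPM gave 1 higher and 10 lower, the length correction 6 and 1, quantile normalization 3 and 4, and leaving out siUSP32 library 3 gave 5 and 6. The 10 lower with TPM are 71.4% of the splicing helicases, against 62.2% of all genes, of which 14.4% were higher. Over all genes the length correction called 35.1% higher and 35.4% lower, and quantile normalization 43.8% and 30%. Without siUSP32 library 3 the shares over all genes were 32.9% and 42.3%. DDX39B, known as UAP56, loads onto introns with U2AF and then couples mRNA to export through the TREX complex (Entrez 7919, chromosome 6, 31530219 to 31542448, minus strand). It was at 181, 209 and 181 FPKM in siUSP32 and at 123, 123 and 126 FPKM in siControl, and the groups were well apart (1.53-fold, log2 difference 0.61 ± 0.06, SE, limma adjusted p = 2.00e-05). The difference was 0.24 with TPM and 0.35 after quantile normalization. Its near-identical paralog DDX39A was at 77.5, 82.3 and 74.2 FPKM in siUSP32 and at 67.5, 65.5 and 67.2 FPKM in siControl (log2 difference 0.22 ± 0.05, limma adjusted p = 0.00396). With TPM DDX39A passed the test as lower (-0.15). Its difference was -0.05 under the length correction and 0.06 after quantile normalization, neither of them past the test. The ratio of DDX39B to DDX39A was 2.33, 2.54 and 2.44 in siUSP32 and 1.83, 1.88 and 1.87 in siControl, without overlap (exact permutation p = 0.1). How the authors' counting divided reads between such copies is not given in the sources used here, so the values of each paralog pair are uncertain gene by gene.

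DHX16, which remodels the spliceosome ahead of the catalytic step, was at 39.6, 44.2 and 39.3 FPKM in siUSP32 and at 32.3, 29.5 and 29.4 FPKM in siControl. The groups did not overlap (log2 difference 0.42 ± 0.06, SE, limma adjusted p = 3.03e-04), but with TPM the difference was 0.06 and lost its call. DDX41, a spliceosome component mutated in inherited myeloid leukemia, averaged 51.4 ± 2.67 FPKM in siUSP32 and 43.7 ± 2.76 in siControl, and DHX35 averaged 14.0 ± 1.07 and 11.9 ± 0.677 (SD, n = 3 each). Both rose, by 0.23 and 0.22 on the log2 scale, and both differences were negative with TPM (-0.13 and -0.12). The call of DDX41 was also lost after quantile normalization (0.12), and that of DHX35 without siUSP32 library 1 (0.19), siControl library 1 (0.21) or siControl library 2 (0.20).

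DDX17 and DDX5, known as p72 and p68, are paralogs that regulate splicing and act as transcription coregulators. DDX17 (Entrez 10521, chromosome 22, 38483440 to 38507660, minus strand) was at 42.3, 37.6 and 40.5 FPKM in siUSP32 and at 63.8, 65.5 and 63.7 FPKM in siControl. Each siUSP32 library was below each siControl library (1.6-fold lower, log2 difference -0.67 ± 0.06, SE, limma adjusted p = 5.13e-06). TPM gave -1.03 and the length correction -0.30. DDX5 was at 167, 149 and 187 FPKM in siUSP32 and at 178, 173 and 178 FPKM in siControl, so the siUSP32 libraries lay on both sides of the siControl libraries (log2 difference -0.08, limma adjusted p = 0.392). DDX5 was lower, past the test, with TPM (-0.45), after quantile normalization (-0.36) and without siUSP32 library 3 (-0.16). The ratio of DDX17 to DDX5 was 0.253, 0.253 and 0.216 in siUSP32 and 0.359, 0.379 and 0.358 in siControl, again without overlap (exact permutation p = 0.1). Their transcripts are 6441 and 3558 bases long. With the length correction DDX17 differed by -0.30 and DDX5 by -0.01, so the paralogs lay closer together than with the deposited FPKM.

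DDX46, which acts when the branch point is recognised, was at 18.1, 15.8 and 18.4 FPKM in siUSP32 and at 22.1, 23.6 and 23.8 FPKM in siControl. The groups did not overlap (log2 difference -0.39 ± 0.07, SE, limma adjusted p = 7.26e-04). The difference was -0.74 with TPM and -0.16 with the GC correction, and the call was lost with the length correction (-0.08). DDX20, a subunit of the SMN complex that assembles spliceosomal snRNPs, was at 9.05, 7.38 and 9.43 FPKM in siUSP32 and at 10, 11.03 and 10.3 FPKM in siControl. It fell by 0.26 on the log2 scale (limma adjusted p = 0.0270). This call was lost with median-ratio scaling (-0.13), quantile normalization (0.0086), the length (-0.09) and GC (0.01) corrections, with no filter on low values, and without siControl library 2 (-0.22) or 3 (-0.26). DHX15 (105 FPKM in siUSP32, 110.2 in siControl), DHX38 (13.5 and 14.7), DHX8 (21.6 and 24.3), DDX23 (25.02 and 26.4) and DDX42 (25.9 and 26.8), which act at other steps of the splicing cycle, did not pass the test. With TPM each of them passed as lower (-0.45, -0.47, -0.53, -0.43 and -0.41), as did DHX15 after quantile normalization (-0.31). With the length correction DHX8 (0.19) and DDX42 (0.12) passed as higher. With the GC correction DHX15 passed as higher (0.19) and DHX38 as lower (-0.15).

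**Figure D3:**
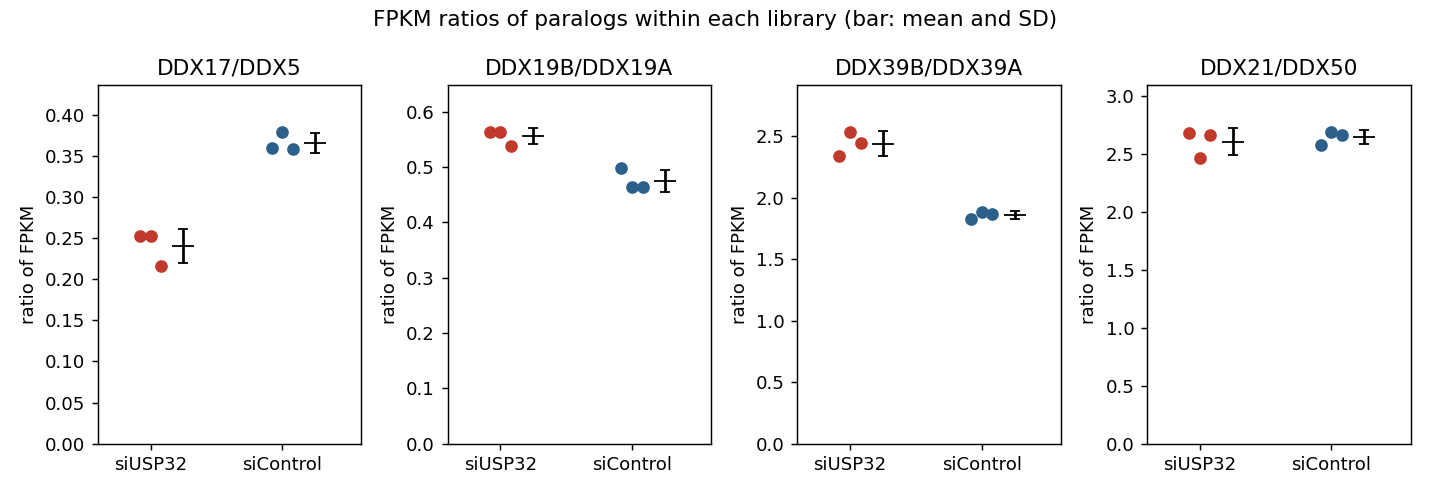
Ratio of the FPKM of 4 paralog pairs within each library, with 3 siUSP32 libraries in red left of 3 siControl libraries in blue, and the mean with its SD as black bars. The DDX17 to DDX5 ratio is 0.216 to 0.253 in siUSP32 and 0.358 to 0.379 in siControl, while the DDX21 to DDX50 ratios of the groups overlap.

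Cytoplasmic helicases held the largest falls. Of 7, all tested, 2 rose, 4 fell and DHX34, of nonsense-mediated decay, did not pass (6.89 FPKM in siUSP32, 6.54 in siControl). That is 28.6% higher and 57.1% lower, against 33.3% and 41.3% of all genes tested. The median log2 difference was -0.29, or -0.23 from that of all genes, against -0.08 and -0.09 with the length correction and -0.10 and -0.10 with the GC correction. TPM gave 0 higher and 5 lower, the length correction gave 3 and 2, and without siControl library 1 the counts were 1 and 4. Over all genes TPM called 14.4% higher and 62.2% lower, and the length correction 35.1% and 35.4%. Without siControl library 1 the shares over all genes were 30.8% and 38.2%.

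DDX3X, which helps ribosomes through structured mRNA leaders and gathers in stress granules (Entrez 1654, chromosome X, 41333284 to 41364472, plus strand), was at 79.3, 59.1 and 88.3 FPKM in siUSP32 and at 149, 150.2 and 157 FPKM in siControl. Its mean was 2.01-fold lower, with no overlap (log2 difference -1.02 ± 0.12, SE, limma adjusted p = 6.45e-05). Its transcript of 7473 bases was the longest among the tested helicases, with a difference of -0.59 under the length correction and -1.39 under TPM. DDX3Y, its copy on the Y chromosome, was not among the 52 genes that met the rule, so no value is given for it. DDX6, which represses mRNA and promotes its decapping in P-bodies (Entrez 1656, chromosome 11, 118747766 to 118791149, minus strand), was at 17.0, 13.8 and 17.4 FPKM in siUSP32 and at 29.3, 29.7 and 29.5 FPKM in siControl. The separation was wide next to the spread of either group (1.84-fold lower, log2 difference -0.84 ± 0.08, SE, limma adjusted p = 1.52e-05). The length correction gave -0.49.

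DHX36, which unwinds G-quadruplexes, was at 11.2, 9.84 and 12.1 FPKM in siUSP32 and at 14.9, 16.0 and 16.1 FPKM in siControl. It fell by 0.47 on the log2 scale (limma adjusted p = 4.31e-04) without overlap. The difference was -0.82 with TPM and -0.24 with the GC correction, and the call was lost with the length correction (-0.08). DHX29, which aids scanning on structured leaders, was at 13.6, 11.8 and 15.4 FPKM in siUSP32 and at 16.7, 16.4 and 17.2 FPKM in siControl. It fell by 0.29 (limma adjusted p = 0.0132). This call was lost with median-ratio scaling (-0.16), quantile normalization (-0.15), the length correction (-0.10) and the GC correction (-0.10).

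DDX19B and DDX19A, neighbours on chromosome 16, encode near-identical helicases that release export factors from mRNA at the cytoplasmic face of the nuclear pore. DDX19B was at 14.0, 14.3 and 14.7 FPKM in siUSP32 and at 10.3, 10.3 and 10.8 FPKM in siControl (log2 difference 0.42 ± 0.06, SE, limma adjusted p = 1.16e-04), and DDX19A at 24.9, 25.3 and 27.2 FPKM in siUSP32 and at 20.7, 22.3 and 23.3 FPKM in siControl (0.22 ± 0.06, limma adjusted p = 0.0112). Neither overlapped between the groups. With TPM the differences were 0.08 and -0.14 and neither passed, and the call of DDX19A was lost without siControl library 1 (0.17). The ratio of DDX19B to DDX19A was 0.555 ± 0.0144 in siUSP32 and 0.475 ± 0.0199 in siControl (SD, n = 3 each, exact permutation p = 0.1). Their transcripts are 3386 and 5007 bases long. With the length correction both genes differed by 0.46, so the higher ratio in siUSP32 was not kept.

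The FPKM of the 16 nucleolar helicases summed to 784, 774 and 819 in siUSP32 and to 587, 579 and 588 in siControl. Those of the 14 splicing helicases summed to 791, 783 and 825 in siUSP32 and to 754, 747 and 758 in siControl, and those of the 7 cytoplasmic helicases to 167, 141 and 182 in siUSP32 and to 248, 251 and 261 in siControl. None of these sums overlapped between the groups, and the nucleolar and splicing sums were higher in siUSP32. DDX39B alone averaged 190 FPKM in siUSP32 and 124 FPKM in siControl. That is a larger rise than that of the splicing sum, which averaged 799 in siUSP32 and 753 in siControl. The higher splicing sum therefore rested on DDX39B.

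Shares of a library's summed FPKM, which amount to TPM scaling, gave another order, since the library sum itself was 1.30-fold higher in siUSP32. The 16 nucleolar helicases made up 0.0898%, 0.0816% and 0.0957% in siUSP32 and 0.0855%, 0.0843% and 0.0846% in siControl. The groups overlapped (exact permutation p = 0.4). The 14 splicing helicases made up 0.0905%, 0.0826% and 0.0964% in siUSP32 and 0.110%, 0.109% and 0.109% in siControl. The 7 cytoplasmic helicases, of which DDX3X had the highest FPKM, made up 0.0191%, 0.0149% and 0.0213% in siUSP32 and 0.0361%, 0.0366% and 0.0375% in siControl. Neither of these shares overlapped between the groups (exact permutation p = 0.1 for each). The splicing helicases thus had the higher sum, which rested on DDX39B, and the lower share in siUSP32. All 3 shares were lowest in siUSP32 library 2, which had the highest FPKM sum.

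**Figure D4:**
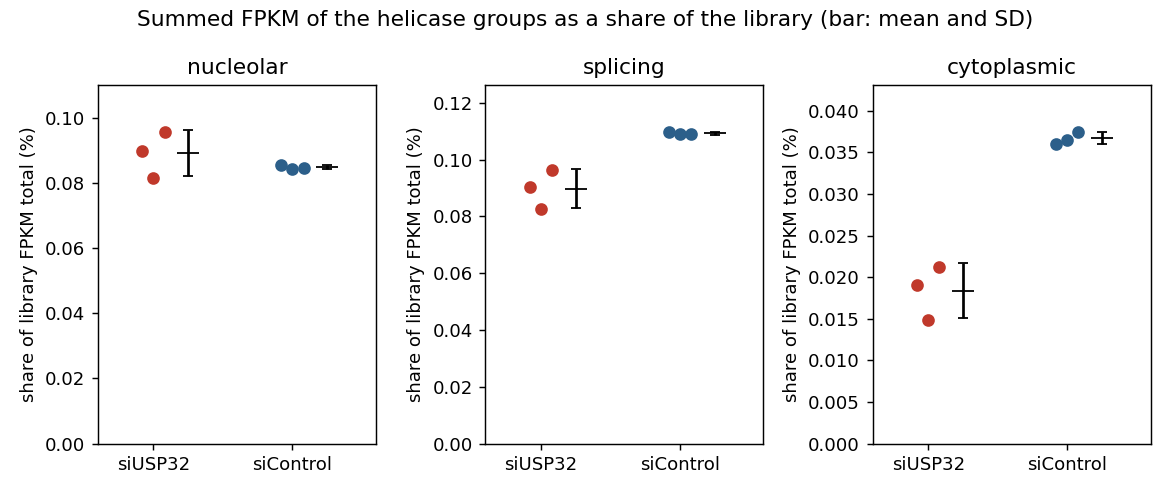
Summed FPKM of the nucleolar, splicing and cytoplasmic helicases as a percentage of the summed FPKM of each library, with 3 siUSP32 libraries in red left of 3 siControl libraries in blue, and the mean with its SD as black bars. The cytoplasmic share is 0.0149% to 0.0213% in siUSP32 and 0.0361% to 0.0375% in siControl, and the nucleolar shares overlap.

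Of the 2 helicases of mitochondria, DDX28, which takes part in assembly of the mitochondrial ribosome, was at 10.5, 11.9 and 10.02 FPKM in siUSP32 and at 5.64, 6.04 and 6.06 FPKM in siControl. It rose 1.82-fold without overlap (log2 difference 0.77 ± 0.07, SE, limma adjusted p = 1.56e-05), with 0.44 under TPM. DHX30, of mitochondrial RNA granules, averaged 38.2 ± 1.88 FPKM in siUSP32 and 38.5 ± 1.24 in siControl (SD, n = 3 each) and did not pass. Of the antiviral helicases, DDX60L, which can share reads with the closely related DDX60, fell to 11.8 ± 0.240 FPKM in siUSP32 against 13.9 ± 0.360 in siControl, but it passed the test as higher under the length correction (-0.22 as deposited, 0.18 corrected), and the call was lost with median-ratio scaling (-0.09), quantile normalization (-0.02) and the GC correction (0.01). DHX58, known as LGP2, did not pass, at 1.76 FPKM in siUSP32 and 1.45 in siControl. DDX53, a helicase gene of testis and tumours, fell to 3.19 ± 0.354 FPKM in siUSP32 against 4.13 ± 0.345 in siControl, and its log2 difference of -0.29 was 0.10 after quantile normalization, -0.18 with median-ratio scaling, -0.05 with the GC correction and -0.24 without siControl library 3, none of them past the test.

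Among 7 further members 3 rose, 1 fell and 3 did not pass. DDX11, a DNA helicase of sister chromatid cohesion that has several near-identical pseudogene copies and is uncertain for that reason, rose to 99.8 ± 2.88 FPKM in siUSP32 against 69.6 ± 0.564 in siControl (log2 difference 0.51, or 0.15 with TPM and 0.33 after quantile normalization). DDX59 rose 1.49-fold, to 10.2 FPKM in siUSP32 against 6.85 in siControl, with a call lost by TPM (0.18). DHX32 rose by 0.20, which was -0.15 with TPM, and its call was lost with no filter on low values and without siUSP32 library 3 (0.12) or any 1 siControl library (0.19 to 0.20). DHX57 fell to 7.19 FPKM in siUSP32 against 9.85 in siControl (log2 difference -0.41), a call lost with the length correction (-0.12) and after quantile normalization (-0.13). DDX1, of the tRNA ligase complex, DHX9, known as RNA helicase A, and DHX40 were at 80.6, 64.4 and 22.1 FPKM in siUSP32 and at 77.6, 61.8 and 21.5 FPKM in siControl. Without siUSP32 library 2 these 3 passed the test as higher (0.12, 0.18 and 0.14), and with TPM as lower (-0.32, -0.32 and -0.33).

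Transcript length and the difference moved together among the helicases too. Over the 49 tested, Pearson's r between the log2 difference and log2 length was -0.52 and Spearman's rho was -0.45, as a description across genes of the same libraries. The transcripts are 1903 to 7473 bases long by GENCODE 29, with medians of 4648 bases for nucleolar, 3945 for splicing and 5007 for cytoplasmic helicases. DHX37, DDX54, DDX27 and DDX39B, at 4550, 4380, 4929 and 5158 bases, had larger differences with the length correction (0.96, 0.88, 0.80 and 0.87) than without it (0.76, 0.71, 0.56 and 0.61). DDX49, DDX28, DDX47 and DDX50, at 1912, 2169, 2689 and 2538 bases, had smaller ones with it (0.70, 0.57, 0.23 and 0.15) than without it (0.96, 0.77, 0.30 and 0.26). The part of transcript length in these rises and in the falls of DDX3X, DDX6 and DDX17 was not tested beyond the corrected values given above.

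**Figure D5:**
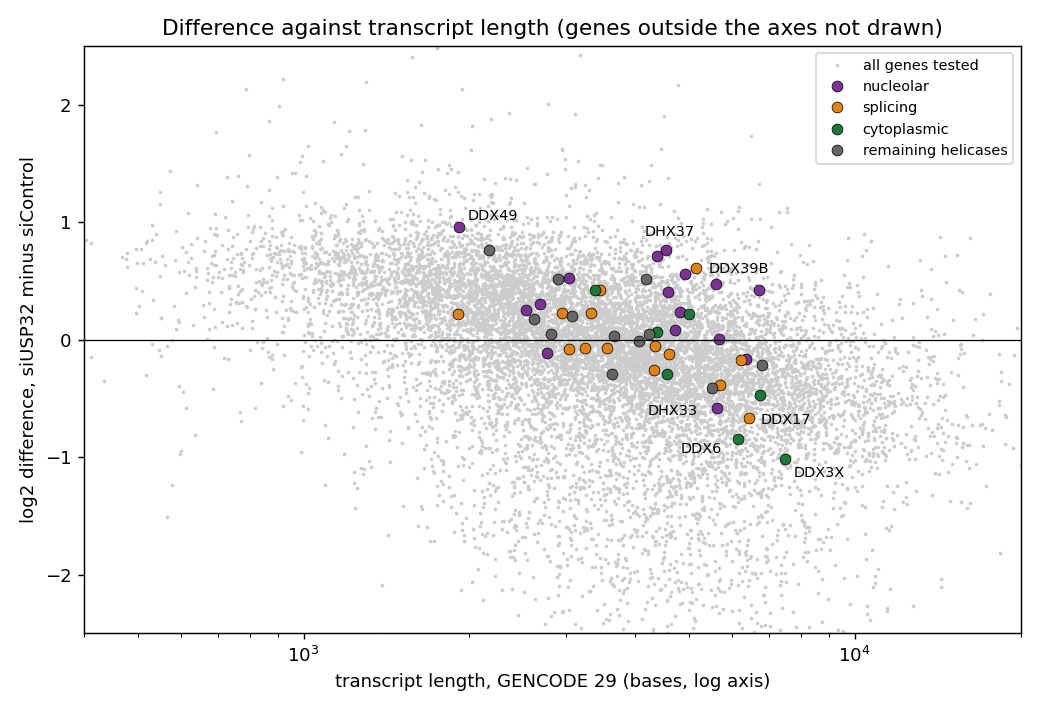
Log2 difference, siUSP32 minus siControl, against transcript length in bases on a log axis, for all genes tested that fall within the axes (grey) and for the helicases by role (coloured circles). The helicases run from DDX49 at 1912 bases and 0.96 to DDX3X at 7473 bases and -1.02, and DHX37 lies at 4550 bases and 0.76.

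RNA helicases outside the DDX and DHX names were mixed. Of 18 listed 15 were tested, and 4 rose, 5 fell and 6 did not pass, with a median log2 difference of -0.05. Among all genes tested 33.3% rose and 41.3% fell, with a median of -0.06. EIF4A1, the founding DEAD box helicase of cap-dependent translation, rose 1.79-fold, to 1197 ± 12.5 FPKM in siUSP32 against 667 ± 14.3 in siControl (SD, n = 3 each, limma adjusted p = 3.62e-07). Its log2 difference of 0.84 was 0.47 with TPM, 0.53 with the length correction and 0.26 after quantile normalization. SUPV3L1, a mitochondrial RNA helicase, rose 1.35-fold, with a call lost by TPM (0.06). UPF1, of nonsense-mediated decay, fell to 26.0 ± 0.454 FPKM in siUSP32 against 37.0 ± 0.150 in siControl, and HELZ to 0.560 against 1.69 FPKM. With the length correction these differences of -0.49 and -0.79 were -0.21 and -0.21. TPM gave 1 higher and 11 lower, against 14.4% and 62.2% of all genes. The length correction gave 10 and 3, against 35.1% and 35.4% of all genes.

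Genes of G-patch proteins, listed as possible partners of DHX helicases, were mixed as well, with 9 of 21 higher, 7 lower and 5 not past the test (median 0.12). Whether each of the 21 switches on a DHX helicase was not examined here. The shares over all genes tested were 33.3% higher and 41.3% lower. GPKOW, the partner of DHX16, rose to 33.1 ± 1.73 FPKM in siUSP32 against 22.0 ± 0.761 in siControl, and SUGP1, a splicing partner of DHX15, to 28.8 ± 1.85 against 18.1 ± 1.12 FPKM. Their differences of 0.57 and 0.64 were 0.21 and 0.29 with TPM. SON and GPATCH8 fell, to 51.4 FPKM in siUSP32 against 78.9 in siControl and to 6.57 against 9.60 FPKM, and lost their calls with the length correction (-0.13 and -0.03). TPM gave 3 higher and 11 lower, against 14.4% and 62.2% of all genes. The length correction gave 12 and 1, against 35.1% and 35.4% of all genes. Of 15 regulators of DEAD box helicases, mostly with an MIF4G domain, 4 rose, 5 fell and 6 did not pass (median -0.01). EIF4G1 and EIF4G3, the scaffolds that activate eIF4A, fell to 72.7 ± 1.33 and 18.8 ± 1.86 FPKM in siUSP32 against 115 ± 1.86 and 32.1 ± 1.12 in siControl, with differences of -0.65 and -0.75 that were -0.34 and -0.39 with the length correction. GLE1, the activator of DDX19 at the pore, and MIF4GD rose, to 23.7 and 9.81 FPKM in siUSP32 against 17.3 and 7.17 in siControl, and both lost their calls with TPM (0.07 and 0.07). With TPM 0 of the 15 were higher and 12 lower.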

How the data were processed

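RNA-seq libraries of siUSP32 and siControl cells, 3 each, were compared. The authors deposited 1 table of FPKM per library, per the file headers, with GRCh38.p13 named as the build in the submitters' processing notes. No source used here gives the aligner, counting, annotation, strand handling or filters. FPKM are not counts, so no count model was used, and with the depth unknown no counting intervals were computed. For the 12003 genes averaging at least 1 FPKM, log2(FPKM + 1) was tested with limma 3.58.1 in R 4.3.3 (mean-variance trend, 2-sided, no covariate) and Benjamini-Hochberg adjustment over all of them. Differences are siUSP32 minus siControl in these log2 units, where changes of low genes are understated. Folds are ratios of mean FPKM. The members, their roles and the lists of partner genes were chosen with earlier results of these data known. Named in full were, for each of the 3 main roles, up to 4 called members with the largest rise and 4 with the largest fall, and 4 paralog pairs, and members of the remaining roles by their means. For each partner list up to 2 called genes per direction with the smallest adjusted p were named. Locations, lengths and GC content are those of GENCODE 29, by Entrez identifier (the APPRIS principal transcript with the longest coding sequence). The length and GC corrections subtract a loess curve (span 0.5) through each library's deviations from the mean of the 6 libraries. The other alternatives were a pseudocount of 0.1, no filter, a minimum of 5 FPKM, TPM, median-ratio and quantile scaling, limma without trend, a block for replicate number, and the omission of each library. SKIC2 was listed under the older symbol SKIV2L.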

Additional observations from a re-analysis of the deposited data

How the results depend on the processing

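Over all 49 helicases, TPM scaling gave 7 higher and 27 lower, against 22 and 11, median-ratio scaling gave 7 lower and the length correction 6 lower. Of nucleolar helicases, TPM gave 4 higher and 5 lower, against 11 and 1, and the length correction 2 lower. Of splicing helicases, TPM gave 1 higher and 10 lower, against 5 and 3, quantile normalization gave 3 higher and the length correction 1 lower. Of cytoplasmic helicases, TPM gave 0 higher, against 2, and the length correction 2 lower, against 4. Over all genes TPM called 14.4% higher and 62.2% lower, and the length correction 35.1% and 35.4%. Median-ratio scaling called 40.9% and 34.7% of all genes, and quantile normalization 43.8% and 30%. Leaving out 1 library gave 18 to 26 helicases higher and 9 to 16 lower, nucleolar 10 to 12 higher and 1 to 3 lower, splicing 4 to 5 higher and 2 to 6 lower, and cytoplasmic 1 to 2 higher and 4 lower each time. The most lower calls came without siUSP32 library 3, and 1 cytoplasmic rise was lost without siControl library 1. Over all genes, leaving out 1 library gave 30.8% to 35.6% higher and 38.0% to 42.3% lower. The cause of these shifts was not tested.

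With TPM the log2 differences that took the other sign, with a call in at least 1 of the fits compared, were those of DDX1 (-0.32), DDX18 (-0.36), DDX19A (-0.14), DDX21 (-0.13), DDX39A (-0.15), DDX41 (-0.13), DDX47 (-0.064), DDX50 (-0.10), DDX51 (-0.24), DHX32 (-0.15), DHX34 (-0.26), DHX35 (-0.12), DHX40 (-0.33), DHX9 (-0.32) and EDC3 (-0.018). With the length correction they were those of DDX39A (-0.047), DDX42 (0.12), DDX52 (0.20), DDX60L (0.18), DHX30 (0.12) and DHX8 (0.19), with the GC correction DDX20 (0.012), DDX60L (0.013) and DHX15 (0.19), after quantile normalization DDX20 (0.0086) and DDX53 (0.10), and with median-ratio scaling DHX30 (0.13). Over all alternatives of USP32, the tested helicases and the named partner genes, 955 differences kept their sign and side of the threshold, 52 kept their sign and lost a call, and 34 kept it and gained one. The other sign was taken by 27 with a call in at least 1 of the fits compared, which are those listed, and by 31 with a call in neither.

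The replicate numbers were not shown to pair libraries: deviations of same-numbered libraries correlated at -0.08, 0.07 and 0.12 across genes. With the replicate number as a block 22 helicases were higher and 11 lower, as without it, and no helicase changed its call. The unknown read depth leaves the precision of the lowest values unknown.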

Other observations

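DDX6 works in P-bodies with decapping and repressor proteins, and of 10 such partners 6 fell and 1 rose, while 3 missed the threshold. Their median log2 difference was -0.22, against -0.06 for all genes, of which 41.3% fell and 33.3% rose. After quantile normalization it was 0.02, against 0.10 for all genes, and median-ratio scaling gave 2 of the 10 higher and 2 lower, against 40.9% and 34.7% of all genes. EDC4, the decapping scaffold, fell to 7.07 ± 0.332 FPKM in siUSP32 against 11.9 ± 0.676 in siControl, and XRN1, the exonuclease that degrades decapped mRNA, to 1.72 ± 0.290 against 3.24 ± 0.0416 FPKM (SD, n = 3 each, limma adjusted p = 1.59e-05 and 1.30e-04). EDC3, an enhancer of decapping, rose to 17.7 FPKM in siUSP32 against 13.9 in siControl, which was -0.02 on the log2 scale with TPM. XRN1 lost its call with the length correction (-0.12). With TPM 0 of the 10 were higher and 8 lower, against 14.4% and 62.2% of all genes.

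DDX39B is a subunit of the TREX complex, and of 13 genes of TREX and the export receptor 9 rose and 2 fell, while 2 missed the threshold (median 0.38). Among all genes tested 33.3% rose and 41.3% fell (median -0.06). Quantile normalization gave 8 of the 13 higher and 3 lower, with a median 0.18 above that of all genes. THOC7, a small THO subunit, rose to 118 ± 7.57 FPKM in siUSP32 against 57.9 ± 3.34 in siControl, and NXT1, the small subunit of the export receptor, to 58.2 ± 5.43 against 27.3 ± 1.25 FPKM (SD, n = 3 each, limma adjusted p = 8.15e-07 and 1.44e-06). On the log2 scale THOC7 differed by 1.02 (0.65 with TPM, 0.50 with the length correction) and NXT1 by 1.06 (0.70 and 0.58). These transcripts are 990 and 1123 bases long. The length correction gave a median of 0.21 over the 13, with 7 higher and 2 lower, against 35.1% and 35.4% of all genes. THOC2, the large THO scaffold, fell to 7.24 FPKM in siUSP32 against 10.8 in siControl, and ZC3H11A to 29.3 against 43.6 FPKM. With the length correction the difference of THOC2 was -0.22 in place of -0.52, and ZC3H11A lost its call (-0.0093). With TPM 5 of the 13 were higher and 5 lower, against 14.4% and 62.2% of all genes.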
